A study of Mus musculus with 13 samples.

Results

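The 10 genes described here encode proteins of DNA damage tolerance, repair and nucleotide supply, namely Polk, Ddb2, Xpc, Rrm2b, Gadd45a, Gadd45b, Gadd45g, Ogg1, Mutyh and Apex1. They were found by symbol among the 32544 rows of a lung count table. The table holds 13 Quant-seq libraries, a method that reads each polyadenylated transcript near its 3′ end, which makes a count depend on the number of transcripts and little on their length. All libraries came from whole lungs of wild-type (WT) C57BL/6J male mice, perfused before freezing. The labels give an age of 7 weeks. The paper gives this as the age at purchase and states an older age for its experiments. The normoxia group held 7 samples from mice kept in 21% oxygen and the hyperoxia group 6 from mice kept in 80% oxygen, each for 5 days.

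Oxygen in excess raises reactive oxygen species, which oxidize the bases of DNA and above all guanine. Base excision repair removes such bases: the glycosylase OGG1 cuts out 8-oxoguanine, MUTYH removes an adenine placed opposite it, and APEX1 cleaves the site that is left. Bulky lesions are found by XPC and by DDB2, the damage sensors of global nucleotide excision repair, and lesions that are still present at a replication fork can be copied by translesion polymerases such as DNA polymerase kappa, the product of Polk. RRM2B, a p53-induced subunit of ribonucleotide reductase, supplies deoxynucleotides in cells that do not divide, and the small GADD45 proteins are stress-induced partners of PCNA, cyclin-dependent kinases and the kinase MAP3K4.

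The total count was between 1607111 and 3387736 in the normoxic libraries and between 2029006 and 4540288 in the hyperoxic ones. Levels are given as CPM (the count of a gene scaled to the same library total) after TMM scaling, and fold changes as log2 of hyperoxia against normoxia from edgeR's quasi-likelihood test, adjusted over 12496 genes tested by the Benjamini-Hochberg method and called at an adjusted p under 0.05. Over all genes tested 1473 were higher and 1346 lower in hyperoxia, against 1097 higher and 1729 lower with limma on log2(CPM + 1) without TMM scaling. A count of 3, taken as the floor, stood for 0.656 to 1.84 CPM depending on the library, and this floor covers counting error only. The library hyperoxia 1 stood apart, with correlations to the others of 0.721 to 0.833 where all other pairs gave 0.854 to 0.967, so values without it are given where it matters. The library names fall into the letters B to M, with 5 normoxic and 3 hyperoxic samples, and O to S, with 2 and 3, and what the letters mark is not stated in the labels.

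Of the 10 genes 7 were tested, of which 4 were higher in hyperoxia, namely Polk, Gadd45a, Gadd45b and Gadd45g, and 0 were lower. Among all genes tested 22.6% were called, 11.8% as higher and 10.8% as lower. Xpc, Rrm2b and Ogg1 were tested and not called, while Ddb2, Mutyh and Apex1 had too few counts to be tested, since a gene needed 3.36 CPM in at least 6 libraries. Gadd45g met this in 7 normoxic and 5 hyperoxic libraries and Ogg1 in 6 and 3, and the other tested genes met it in all 13. The median log2 fold change of the 7 genes tested was 0.98, beside -0.03 over all genes tested. The genes were chosen with earlier results of these data known, so the median is no test of them as a set. Without hyperoxia 1 the same 4 genes were called. Polk was the single gene of the 10 whose groups did not overlap, where 5.6% of all genes tested lay wholly higher and 5.23% wholly lower in hyperoxia.

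**Figure D1:**
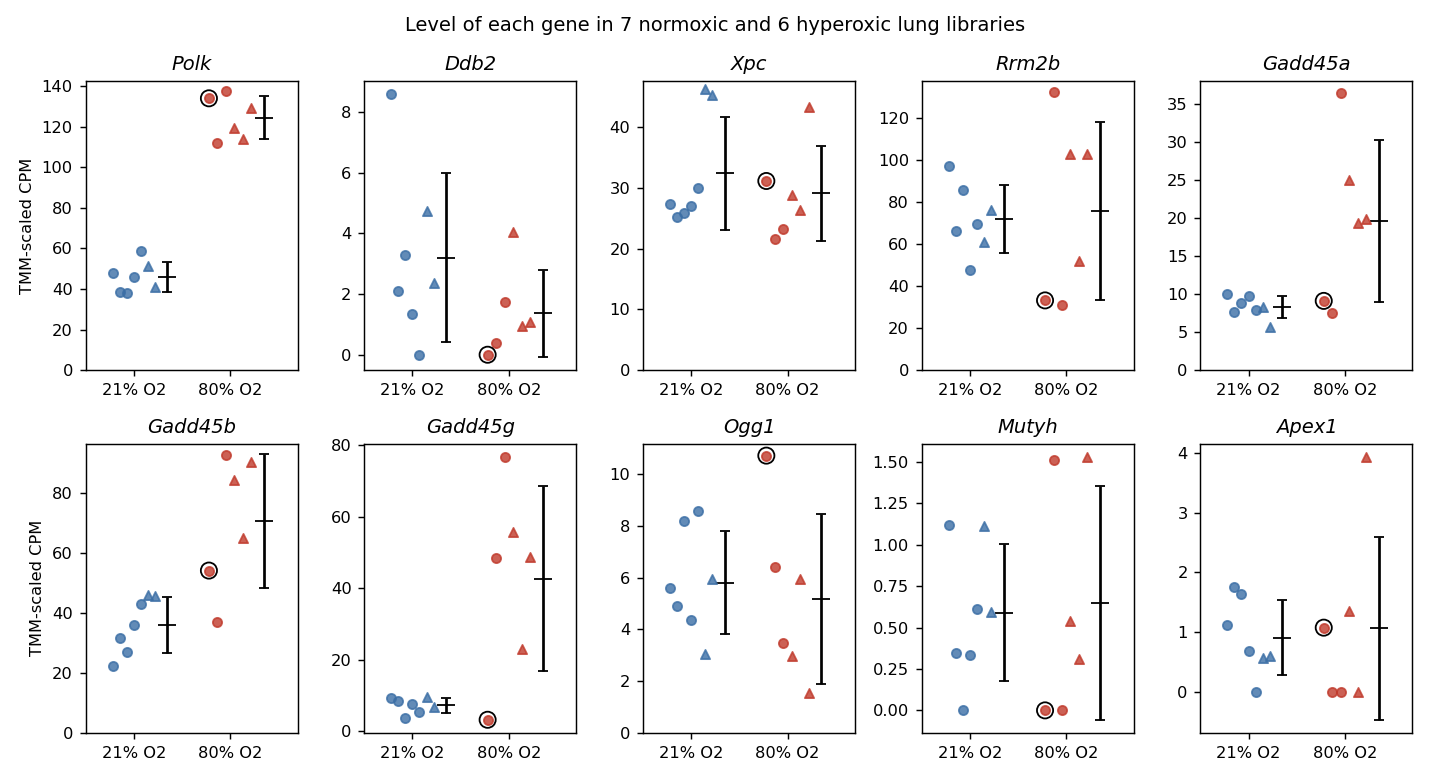
Level of each of the 10 genes in TMM-scaled CPM (vertical axis, from 0, with its own scale for each gene) in the 7 normoxic (blue) and 6 hyperoxic (red) libraries. Circles are library names B to M, triangles O to S, the black ring marks hyperoxia 1, and the bars give mean ± SD; Polk lay between 38.3 and 58.8 CPM in normoxia and between 112 and 138 CPM in hyperoxia.

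Polk rose in every hyperoxic library, with the smallest standard error of the 7 genes tested. DNA polymerase kappa inserts bases opposite bulky adducts of guanine and extends from mismatched ends. In normoxia the 7 libraries held 96 to 185 counts of Polk, or 38.3, 45.8 and 58.8 CPM as lowest, median and highest value. In hyperoxia the 6 libraries held 250 to 592 counts, or 112, 124 and 138 CPM. Every hyperoxic library was thus above every normoxic one, and hyperoxia 1, at 134 CPM, was among them. The mean rose from 45.95 ± 7.53 (SD, n = 7) to 124 ± 10.7 CPM (SD, n = 6), 2.71 times the normoxic mean. The log2 fold change was 1.44 (SE 0.13, 95% interval 1.16 to 1.72, adjusted p = 2.5e-06), and the exact permutation test over the 1716 ways to divide the libraries into 7 and 6 gave p = 0.000583 (two-sided), the smallest it can give. The coefficient of variation was 16.4% in normoxia and 8.58% in hyperoxia. Mean log2 CPM differed by 1.48 within library names B to M and by 1.38 within O to S.

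Polk occupies bases 96480690 to 96542579 on the minus strand of chromosome 13 (GRCm38), has 6 coding transcripts and contains the opposite-strand gene Gm17622, which does not reach the last exon of Polk, where 3′ reads fall. Its upstream promoter is shown because Polk is the gene whose groups did not overlap. The sequence is from RefSeq's annotation of GRCm38.p6 and runs, as those of the GADD45 genes below, from 250 bases before the start site to 50 bases after it, 5′ to 3′ on the gene's own strand. Capitals mark matches on either strand to the motifs searched, here a GC box from -105 to -100 (on the other strand) and TGACG from -49 to -45, counted from the start site.
Polk, chr13:96542530-96542829, minus strand: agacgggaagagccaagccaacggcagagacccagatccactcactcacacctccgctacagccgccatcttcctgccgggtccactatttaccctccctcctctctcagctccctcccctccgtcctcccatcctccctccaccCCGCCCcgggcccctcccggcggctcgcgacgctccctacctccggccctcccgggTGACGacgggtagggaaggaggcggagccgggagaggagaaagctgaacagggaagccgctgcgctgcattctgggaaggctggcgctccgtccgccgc
A second Polk promoter, inside the gene from 96519138 to 96519437, held the p53 decamer, a half-site, from -231 to -222. The GC content was 68.7% in the upstream promoter and 44.3% in the inner one.

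The GADD45 family rose in hyperoxia, with all 3 genes called and with a larger standard error for each than for Polk. GADD45 proteins activate MAP3K4 upstream of p38 and JNK kinases, inhibit the mitotic kinase CDK1 and bind PCNA. Gadd45a is the classical p53 target of the family, while Gadd45b and Gadd45g are best known for induction by cytokines and growth factors.

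Gadd45g showed the largest fold change of the 7 genes tested. The normoxic libraries held 9 to 34 counts, or 3.60, 7.74 and 9.48 CPM as lowest, median and highest value. In the order hyperoxia 1 to 6 the level was 3.22, 48.4, 76.8, 55.7, 23.1 and 48.8 CPM. Thus 5 of 6 hyperoxic libraries were above every normoxic one, while hyperoxia 1, with 6 counts, was below all of them. The mean was 7.27 ± 2.14 CPM in normoxia and 42.7 ± 25.9 CPM in hyperoxia, 5.87 times as high, and the log2 fold change was 2.55 (SE 0.45, 95% interval 1.59 to 3.51, adjusted p = 8.2e-04). The exact permutation test gave p = 0.0122. Without hyperoxia 1 the log2 fold change was 2.79 with an adjusted p of 1.7e-06, and mean log2 CPM differed by 1.76 within library names B to M and 2.21 within O to S.

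Gadd45b had more counts and a smaller change. Its 7 normoxic libraries held 22.4, 36.0 and 46.0 CPM as lowest, median and highest value. In hyperoxia the libraries 1 to 6 held 54.1, 37.0, 92.8, 84.3, 65.0 and 90.3 CPM. All but hyperoxia 2 lay above every normoxic library. The mean rose from 36.0 ± 9.35 to 70.6 ± 22.3 CPM, with a log2 fold change of 0.98 (SE 0.23, 95% interval 0.49 to 1.46, adjusted p = 0.00599) and an exact permutation p of 0.00466. The normoxic mean was 32.0 CPM in library names B to M and 45.9 CPM in O to S, and mean log2 CPM differed between oxygen groups by 0.86 and 0.78 within them.

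Gadd45a was split among the hyperoxic libraries. The normoxic libraries held 13 to 30 counts, with 5.65, 8.36 and 10.1 CPM as lowest, median and highest value. In hyperoxia the libraries 1 to 6 held 9.11, 7.56, 36.5, 25.0, 19.4 and 19.9 CPM. The first and second of them lay inside the normoxic range, and the other 4 were above every normoxic library. The mean rose from 8.33 ± 1.48 to 19.6 ± 10.7 CPM, with a log2 fold change of 1.24 (SE 0.32, 95% interval 0.57 to 1.91, adjusted p = 0.00999) and an exact permutation p of 0.0140. Mean log2 CPM differed by 0.60 within library names B to M, which hold both low libraries, and 1.54 within O to S.

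Hyperoxia 3 was the highest library for Gadd45a, Gadd45b and Gadd45g, and also for Polk, but the other libraries did not rank alike for the 3 genes. Hyperoxia 2 was near the normoxic mean for Gadd45a and Gadd45b, at -0.11 and 0.08 from it on the log2 scale, and 2.68 above it for Gadd45g. Hyperoxia 1 was 0.14 above the normoxic mean for Gadd45a, 0.62 above it for Gadd45b and at -0.98 from it for Gadd45g. The share of the family's counts was compared inside each library, which removes library size and scaling. The log2 ratio of Gadd45a to Gadd45g was 0.23 ± 0.53 in normoxia and -0.83 ± 1.35 in hyperoxia, a difference of -1.06 with an exact permutation p of 0.0804 and an adjusted p of 0.226 over the 10 pairs of genes compared. The ratio of Gadd45b to Gadd45g differed by -1.16 (exact permutation p = 0.0903, adjusted p = 0.226) and that of Gadd45a to Gadd45b by 0.10 (adjusted p = 0.924). Hyperoxia 1 decided the first and second of these, which were -1.52 and -1.72 without it, each with an adjusted permutation p of 0.0168. The change of Gadd45a thus could not be told from that of Gadd45b within the spread of these libraries.

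**Figure D2:**
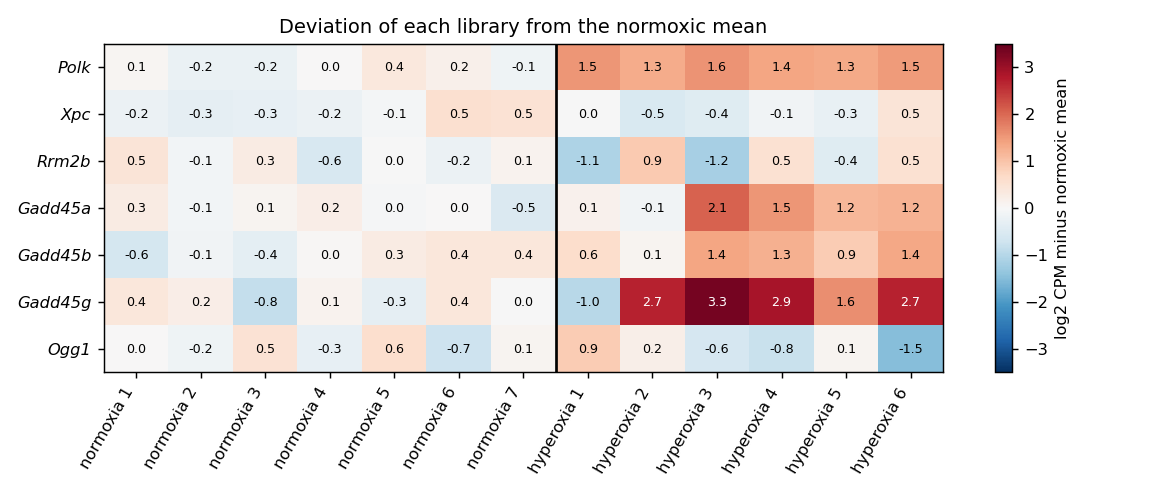
Each cell gives the log2 CPM of 1 gene (rows, the 7 genes tested) in 1 library (columns) minus the mean of the 7 normoxic libraries, with the value printed and coloured from blue (lower) to red (higher). Polk was 1.29 to 1.58 above the normoxic mean in every hyperoxic library, while Gadd45g ran from -0.98 in hyperoxia 1 to 3.34 in hyperoxia 3.

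The 3 genes lie on different chromosomes. Gadd45a lies on chromosome 6 from 67035096 to 67037457 on the minus strand, Gadd45b on chromosome 10 from 80930073 to 80932204 on the plus strand and Gadd45g on chromosome 13 from 51846678 to 51848468 on the plus strand. Gadd45a shares 859 bases with E230016M11Rik on the opposite strand, outside its last exon. The promoters are shown because all 3 genes were called higher, with the matches to the searched motifs in capitals.
Gadd45a, chr6:67037358-67037657, minus strand: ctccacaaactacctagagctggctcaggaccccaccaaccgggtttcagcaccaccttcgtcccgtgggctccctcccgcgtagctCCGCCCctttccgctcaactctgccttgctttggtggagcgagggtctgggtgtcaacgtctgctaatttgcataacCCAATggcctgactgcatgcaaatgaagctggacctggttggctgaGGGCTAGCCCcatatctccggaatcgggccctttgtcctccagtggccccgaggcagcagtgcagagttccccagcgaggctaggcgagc
Gadd45b, chr10:80929841-80930140, plus strand: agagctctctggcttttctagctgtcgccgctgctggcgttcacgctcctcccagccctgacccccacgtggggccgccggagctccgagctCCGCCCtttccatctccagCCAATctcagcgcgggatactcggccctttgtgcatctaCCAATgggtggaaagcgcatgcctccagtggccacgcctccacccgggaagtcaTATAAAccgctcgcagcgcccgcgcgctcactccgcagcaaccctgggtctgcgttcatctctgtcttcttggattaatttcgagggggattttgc
Gadd45g, chr13:51846425-51846724, plus strand: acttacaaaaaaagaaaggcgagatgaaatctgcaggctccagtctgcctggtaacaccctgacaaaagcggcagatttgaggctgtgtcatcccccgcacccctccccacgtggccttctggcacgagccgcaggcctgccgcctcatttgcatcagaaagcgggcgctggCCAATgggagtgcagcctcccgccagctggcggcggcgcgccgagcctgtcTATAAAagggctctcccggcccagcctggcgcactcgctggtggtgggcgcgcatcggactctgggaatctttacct
The motifs were the TATA box TATAAA, the CCAAT box, the GC box GGGCGG, the AP-1 site TGANTCA, the cyclic AMP response element TGACGTCA, its shorter form TGACG, which the longer one contains, and the p53 decamer. The promoters of Gadd45b and Gadd45g held TATAAA, from -46 to -41 and from -27 to -22, as did 13.6% of the 32851 promoters in the table. CCAAT stood in all 3 (from -86 to -82 in Gadd45a, from -139 to -135 and -100 to -96 in Gadd45b, and from -78 to -74 in Gadd45g) and in 37.4% of all promoters. A GC box on the other strand stood from -163 to -158 in Gadd45a and from -158 to -153 in Gadd45b, and 35.7% of all promoters held it. The p53 decamer, a half-site and not a full p53 site, stood from -40 to -31 in Gadd45a and in 8.36% of all promoters. TGANTCA and TGACGTCA had no match in the promoters printed here and stood in 7.81% and 1.79% of all, and TGACG, matched in that of Polk, in 20.8%. A match describes the letters of these windows and not a bound site. The symbols of 7 of the 10 genes matched this table (not Ddb2, Xpc and Rrm2b).

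The damage sensors of nucleotide excision repair gave no called change. Xpc, which binds distorted DNA and opens the repair reaction, had 25.2, 27.3 and 46.3 CPM as lowest, median and highest level in normoxia. In hyperoxia the libraries 1 to 6 held 31.1, 21.5, 23.3, 28.8, 26.3 and 43.3 CPM. The ranges overlapped, with the highest normoxic levels in the libraries named O and P and the highest hyperoxic level in the one named S. The mean was 32.4 ± 9.26 CPM at 21% and 29.0 ± 7.81 CPM at 80% oxygen, with a log2 fold change of -0.16 (SE 0.21, 95% interval -0.61 to 0.29, adjusted p = 0.646) and an exact permutation p of 0.474. With 1 library left out the log2 fold change ran from -0.29 to -0.03. In normoxia the mean was 27.0 CPM in library names B to M and 45.7 CPM in O to S, and the difference between oxygen groups was -0.11 and -0.51 within them on the log2 scale. Xpc lies on chromosome 6 from 91489305 to 91515888 on the minus strand and overlaps 0 annotated genes.

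Ddb2, a p53 target in human cells whose product binds ultraviolet lesions in chromatin, was near the limit of detection. The normoxic libraries 1 to 7 held 23, 6, 10, 4, 0, 17 and 8 counts, 68 in all. The hyperoxic libraries 1 to 6 held 0, 1, 5, 15, 3 and 5 counts, 29 in all. Each group holds a library at 0 (normoxia 5 and hyperoxia 1, whose floors were 1.84 and 1.61 CPM), and no hyperoxic library was above the highest normoxic one. The mean was 3.20 ± 2.80 CPM in normoxia and 1.36 ± 1.44 CPM in hyperoxia, and the exact permutation test of log2 CPM gave p = 0.193. Mean log2 CPM differed by -0.84, and without normoxia 5, the shallowest library, it was -1.21 with an exact permutation p of 0.0411. In a fit with no filter on low counts the log2 fold change was -1.12 (adjusted p = 0.293). A difference was therefore not detectable with these counts over all 13 libraries. Ddb2 lies on chromosome 2 from 91211572 to 91236982 on the minus strand, and its last exon overlaps Acp2 on the opposite strand. Acp2 had 82.0 ± 12.7 and 84.5 ± 19.4 CPM in the groups, and because no source says that reads were counted by strand, reads of the pair may be shared.

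XPC works in a complex with RAD23B, which stabilizes it, and centrin 2 (CETN2), and the ratio of Xpc to Rad23b was lower in hyperoxia. Rad23b rose from 178 ± 18.5 to 376 ± 101 CPM, with no overlap between groups (log2 fold change 1.08, adjusted p = 2.0e-04). Of all genes tested 5.6% lay wholly higher and 5.23% wholly lower, shares that stand beside every gene without overlap named below. Cetn2 fell from 96.7 ± 9.21 to 69.2 ± 9.24 CPM (log2 fold change -0.48, adjusted p = 0.0111). Inside each library the log2 ratio of Xpc to Rad23b was -2.49 ± 0.48 in normoxia and -3.69 ± 0.58 in hyperoxia, with 1 hyperoxic library, number 6, inside the normoxic range. The difference was -1.20 (exact permutation p = 0.00408, adjusted p = 0.0379 over 10 pairs), and it was -1.35 within library names B to M and -1.42 within O to S. With 1 library left out it ran from -1.38 to -1.04. It then lost the threshold without normoxia 1, 3, 4, 6 or 7 (adjusted permutation p = 0.0649 each), hyperoxia 3 (0.0758) or hyperoxia 4 or 5 (0.0505 each). The ratio of Ddb2 to its partner Ddb1 differed by -0.81 (adjusted permutation p = 0.648), with Ddb1 between 21 and 600 counts. That difference ran from -1.23 to -0.31 with 1 library left out.

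Of 30 other nucleotide excision repair genes tested, 7 were higher and 2 lower in hyperoxia, with a median log2 fold change of 0.25. These are 23.3% and 6.67% of the list, beside 11.8% and 10.8% of all genes tested. Gtf2h1, the p62 subunit of the repair and transcription factor TFIIH, rose from 48.8 ± 7.38 to 88.2 ± 13.9 CPM without overlap (log2 fold change 0.85, adjusted p = 5.6e-04). Rpa3, the smallest subunit of the single-strand binding protein RPA, fell from 8.14 ± 2.06 to 3.40 ± 2.23 CPM (log2 fold change -1.22, adjusted p = 0.0306). The others that rose were Ercc5, Mnat1, Gtf2h5, Cul4b and Usp7. Without normoxia 1, 2, 3 or 4, or hyperoxia 2 or 6, 1 gene was lower in place of 2, and the number higher was 5 to 9 with any library left out.

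Of the 19 other genes of damage tolerance tested, 2 were higher and 0 lower, with a median log2 fold change of 0.22. The share higher was 10.5%, beside 11.8% of all genes tested. Rad18, the ubiquitin ligase that marks PCNA at stalled forks so that translesion polymerases are recruited, rose from 9.54 ± 1.60 to 18.6 ± 6.47 CPM, again without overlap between groups (log2 fold change 0.95, adjusted p = 0.00844). Ube2v2, which helps to build ubiquitin chains on PCNA, rose from 73.4 ± 5.09 to 97.7 ± 20.5 CPM with overlap (log2 fold change 0.41, adjusted p = 0.0430). The number called was 1 with normoxia 1, 2, 3, 4 or 5 or hyperoxia 5 left out. Polh, which encodes polymerase eta, the enzyme that copies ultraviolet lesions, had 0 to 5 counts per library. The log2 ratio of Polk to Polh was 2.04 higher in hyperoxia (exact permutation p = 0.00758, adjusted p = 0.0379). In 5 of 6 hyperoxic libraries the ratio exceeded that of each normoxic library. Polh lay at or close to the floor throughout. With 1 library left out the difference ran from 1.76 to 2.31 and lost the threshold without normoxia 1, 3, 4, 6 or 7 (adjusted permutation p = 0.0649) or hyperoxia 3 (0.0758) or 4, 5 or 6 (0.0631).

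**Figure D3:**
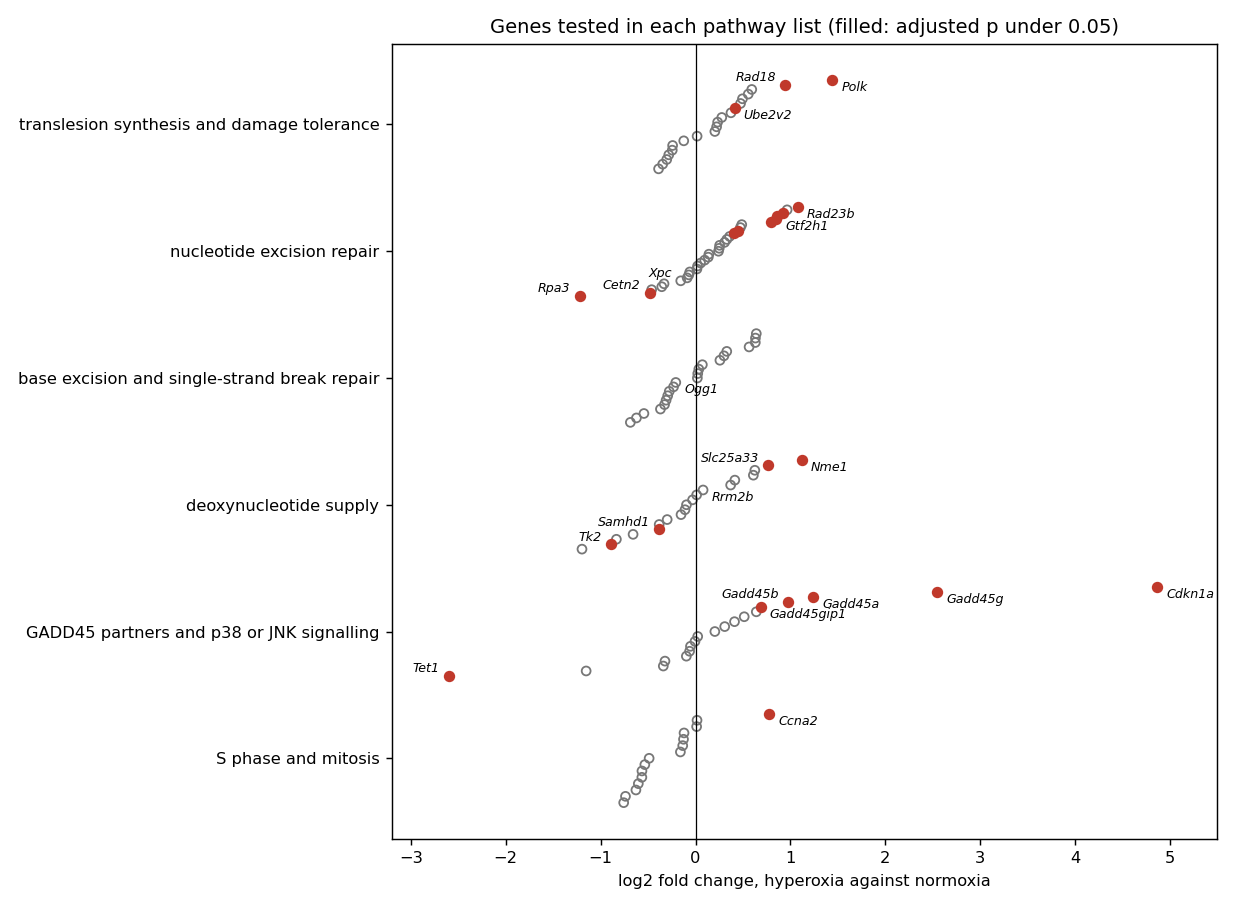
Log2 fold change of hyperoxia against normoxia (horizontal axis) for each gene tested in 6 lists (vertical axis, genes ordered by value within a list), filled red where the adjusted p was under 0.05 and open where not. Polk and Rad18 lead the damage tolerance list, the base excision list holds no filled point, and Cdkn1a at 4.86 and Tet1 at -2.60 bound the GADD45 list.

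Rrm2b had nearly the same mean in both groups and widely spread hyperoxic libraries. In normoxia it had 47.8, 69.8 and 97.4 CPM as lowest, median and highest level. In hyperoxia the libraries 1 to 6 held 33.2, 133, 31.3, 103, 52.2 and 103 CPM. Thus 3 of the hyperoxic libraries were above every normoxic one and 2 were below all of them. The mean was 72.0 ± 16.3 CPM in normoxia and 75.8 ± 42.5 CPM in hyperoxia, and the coefficient of variation was 22.6% and 56.1%. The log2 fold change was 0.08 (SE 0.31, 95% interval -0.57 to 0.73, adjusted p = 0.886), while the difference in mean log2 CPM was -0.11 (exact permutation p = 0.765), so that the sign depended on the scale. The difference was -0.46 within library names B to M and 0.27 within O to S. The 2 low libraries, hyperoxia 1 and 3, were not alike otherwise, since hyperoxia 3 had the highest GADD45 levels of all. The log2 fold change turned to -0.13 without hyperoxia 2 and to -0.02 without hyperoxia 4 or 6, and the difference in mean log2 CPM turned to 0.08 without hyperoxia 1 and to 0.10 without hyperoxia 3.

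The partners of RRM2B in ribonucleotide reductase gave no called change. Rrm1, the large subunit, had 87.7 ± 17.4 and 82.0 ± 21.9 CPM (log2 fold change -0.10, adjusted p = 0.750). The log2 ratio of Rrm2b to Rrm1 was -0.29 ± 0.58 in normoxia and -0.29 ± 1.19 in hyperoxia (adjusted permutation p = 1). Rrm2, the small subunit of dividing cells, had 1 to 18 counts per library and was not tested, and the ratio of Rrm2b to it differed by 0.23 (adjusted permutation p = 0.924). Rrm2b lies on chromosome 15 from 37923952 to 37961318 on the minus strand, with the same-strand processed pseudogene Gm3362 inside it and the antisense gene Gm49085 at its start, both outside its last exon.

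In deoxynucleotide supply 2 of the 18 other genes tested were higher and 2 lower, with a median log2 fold change of -0.10. Each share was 11.1%, beside 11.8% higher and 10.8% lower among all genes tested. Nme1, a nucleoside diphosphate kinase, rose from 74.6 ± 9.03 to 162 ± 38.4 CPM without overlap (log2 fold change 1.12, adjusted p = 9.1e-05), and Slc25a33, a mitochondrial pyrimidine nucleotide carrier, rose from 12.3 ± 3.75 to 20.9 ± 5.31 CPM with overlap (log2 fold change 0.76, adjusted p = 0.0344). Samhd1, which breaks deoxynucleotides down, fell from 261 ± 27.8 to 200.2 ± 22.7 CPM (log2 fold change -0.38, adjusted p = 0.0337). Tk2, the mitochondrial thymidine kinase, fell from 11.1 ± 3.57 to 5.79 ± 2.54 CPM (log2 fold change -0.89, adjusted p = 0.0494). These calls were near the threshold except that of Nme1. The number lower was 0 without normoxia 2, 3, 4 or 5 or hyperoxia 2 or 6, and 1 without normoxia 6 or 7 or hyperoxia 3 or 5. The number higher was 1 without normoxia 2, 4, 6 or 7 or hyperoxia 3.

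The genes of 8-oxoguanine repair gave no called change. Ogg1 had 11 to 25 counts in the normoxic libraries and 7 to 20 in the hyperoxic ones. Its level was 3.07, 5.60 and 8.58 CPM as lowest, median and highest value in normoxia, and 10.7, 6.42, 3.47, 2.96, 5.94 and 1.53 CPM in hyperoxia 1 to 6. Hyperoxia 1 was the highest of all 13 libraries and hyperoxia 6 the lowest, so that the groups overlapped throughout. The mean was 5.80 ± 1.99 and 5.18 ± 3.29 CPM, with a log2 fold change of -0.21 (SE 0.39, 95% interval -1.05 to 0.63, adjusted p = 0.754) and an exact permutation p of 0.460. It was -0.50 without hyperoxia 1 and 0.03 without hyperoxia 6. The interval is too wide to show that Ogg1 was steady.

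Mutyh and Apex1 were at or under the floor in most libraries. Mutyh had 12 counts over the 7 normoxic and 14 over the 6 hyperoxic libraries, with 3 or fewer in 6 and 4 of them. Apex1 had 19 and 25 counts, and 18 of the 25 came from hyperoxia 6. Neither group of either gene was at 0 in all of its libraries. The exact permutation test of log2 CPM gave p = 0.927 for Mutyh and p = 0.761 for Apex1, and in a fit with no filter the log2 fold changes were 0.23 (adjusted p = 0.873) and 0.32 (adjusted p = 0.829). The ratios of Ogg1 to Mutyh and of Ogg1 to Apex1 differed by -0.20 and 0.32 on the log2 scale (adjusted permutation p = 0.924 each). With so few counts no difference was detectable for either gene.

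Both Ogg1 and Apex1 share their last exon with a neighbour. Ogg1 lies on chromosome 6 from 113326972 to 113335068 on the plus strand, and its last exon overlaps Camk1 on the other strand, which had 22.6 ± 5.51 and 21.1 ± 8.05 CPM (log2 fold change -0.09, adjusted p = 0.837). Apex1 (chromosome 14, bases 50924968 to 50927139, plus strand) overlaps Tmem55b, named Pip4p1 in the annotation, on the other strand. Tmem55b had 75.9 ± 10.4 and 104 ± 29.4 CPM (log2 fold change 0.45, adjusted p = 0.0647). Mutyh (chromosome 4, bases 116807723 to 116819440, plus strand) shares no bases with another annotated gene. Counts of Ogg1 and Apex1 are uncertain to the extent that reads were shared with these neighbours.

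Of the 20 other genes of base excision and single-strand break repair that were tested, 0 were called higher and 0 lower. Their median log2 fold change was 0.02. Among all genes tested 11.8% were higher and 10.8% lower. DESeq2 called 2 of these 20 genes higher. The number higher was 1 without hyperoxia 1 or 4 and 3 without hyperoxia 3. The list holds the other glycosylases and the enzymes that fill and seal the gap.

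Among the partners of GADD45 proteins and the kinases that they activate, 2 of 16 genes tested were higher and 1 was lower. The median log2 fold change was 0.01. The shares were 12.5% higher and 6.25% lower, beside 11.8% and 10.8% of all genes tested. The 5 repair and signalling lists together gave 12.9% higher and 4.95% lower. Cdkn1a, which encodes the cell cycle inhibitor p21, rose from 48.7 ± 12.8 to 1424 ± 255 CPM (log2 fold change 4.86, adjusted p = 1.1e-09). Gadd45gip1, a mitochondrial ribosome protein that also binds GADD45 proteins, rose from 58.2 ± 11.1 to 94.1 ± 39.2 CPM with overlap (log2 fold change 0.69, adjusted p = 0.0295). Tet1, one of the dioxygenases that oxidize 5-methylcytosine, fell from 17.6 ± 5.72 to 2.96 ± 1.77 CPM, with every hyperoxic library below every normoxic one (log2 fold change -2.60, adjusted p = 1.6e-04). The number higher was 5 without hyperoxia 1 and 1 without normoxia 2, 4 or 5, and 2 genes were lower without hyperoxia 5. Of the 22 genes in a list of S phase and mitosis 15 had enough counts to be tested. Of these 1 was higher (6.67%) and 0 were lower, with a median log2 fold change of -0.49. The gene higher was Ccna2, which encodes cyclin A2, at 24.4 ± 7.03 and 41.5 ± 18.2 CPM (log2 fold change 0.78, adjusted p = 0.0360), and it was not called without normoxia 1, 2, 3 or 4 or hyperoxia 3 or 5. Without hyperoxia 1 or 3, 1 gene of this list was lower.

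**Figure D4:**
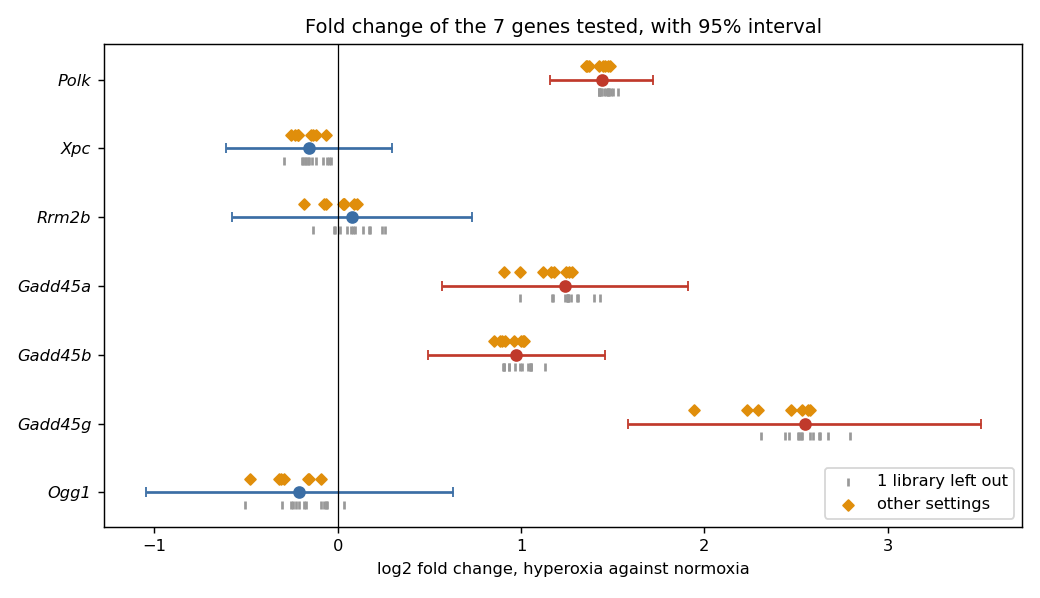
Log2 fold change of hyperoxia against normoxia with its 95% interval (horizontal axis) for the 7 genes tested (vertical axis), red where the adjusted p was under 0.05. Grey ticks give the value with 1 library left out and orange diamonds the value under the other settings; Polk stayed between 1.36 and 1.53, while Rrm2b crossed 0.

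No single gene had a fold change of oxygen that differed detectably between the library names B to M and O to S. In edgeR's test of the interaction 0% of the 12496 genes were called. The 7 genes tested had adjusted p from 0.647 for Xpc to 0.926 for Gadd45g. An unadjusted p under 0.05 was found for 1158 genes (1078 with library size in place of TMM scaling). This is a larger share than the 0.05 expected where no gene has an interaction, and its cause was not tested. Intervals of the difference were wide, from -0.90 to 2.09 on the log2 scale for Gadd45a and from -0.71 to 0.50 for Polk.

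Cell type markers moved with oxygen as well, where 11.8% of all genes tested were higher and 10.8% lower. All 6 markers of alveolar type 2 cells were tested and 5 were lower, with a summed level of 12382 to 23028 CPM in normoxia and 3181 to 6846 CPM in hyperoxia. All 6 B cell markers were lower (152 to 226 against 35.4 to 89.5 CPM), and 2 of 3 T and NK cell markers tested were lower (28.3 to 47.8 against 7.99 to 26.3 CPM). Fibroblast markers were higher for 2 of 5 tested (1995 to 2999 against 2881 to 3663 CPM). Endothelial markers gave 1 higher and 1 lower of 6, alveolar type 1 and ciliated cell markers 1 lower of 6 each, alveolar macrophage markers 1 higher and 3 lower of 6, monocyte markers 2 lower of 6, neutrophil markers 0 of 5, and erythroid markers 1 lower of 4. Hyperoxia 1, the library with the lowest Gadd45g level, was the lowest hyperoxic library for the summed markers of alveolar type 1 cells (686 CPM, against 1712 to 2107 CPM in normoxia), ciliated cells (65.9 against 132 to 309 CPM), alveolar macrophages (150.1 against 289 to 370 CPM) and neutrophils (48.3 against 105 to 208 CPM). It was the highest hyperoxic library for the markers of monocytes (451 against 268 to 352 CPM), B cells (89.5 CPM) and T and NK cells (26.3 CPM), and the part of these markers in its levels was not tested. No marker was at 0 in all libraries, and the surfactant genes that define alveolar type 2 cells were present in both groups, as the lung label requires. In whole lung, fewer cells of a type and less RNA per cell cannot be told apart, and the part of cell make-up in the levels of Polk and the GADD45 genes was not tested.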

How the data were processed

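Lung RNA of 13 samples was measured by Quant-seq, 7 in normoxia and 6 in hyperoxia, and groups and replicate numbers came from the sample titles. The authors quantified reads with kallisto, per the submitters' processing notes, which also name mm10 and limma 3.54.2. They deposited unnormalized counts per gene symbol, together with log10 values that equal log10(CPM + 1) to 4.44e-16. The deposited log10 values were used for that check, and the tests used the counts. All columns were mapped to samples (0 unmapped). Whether the counting used strand is not given in the sources used here.

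Counts were filtered with filterByExpr, scaled with TMM and tested with edgeR 4.0.16 (glmQLFit, glmQLFTest) in R 4.3.3, without covariates and with Benjamini-Hochberg adjustment over all genes tested. The common dispersion was 0.106. Log2 CPM used a prior count of 2, and single genes were compared by an exact two-sided permutation test over the 1716 divisions into 7 and 6. Ratios of 2 genes within a library used counts plus 0.5, with p-values adjusted over 10 pairs. The fits were also run on simulated counts with the same dispersion for every gene and no outlying library. No result given here rests on that run. Alternatives were DESeq2 1.42.0, limma 3.58.1 (voom, or log2(CPM + 1)), library size without TMM, other filters (none, or 10 counts or more in each library), a term for the replicate number (replicate block) or for the letters of the library names, another prior count or pseudocount, and leaving out single libraries.

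All 10 genes were named, and other genes if they stood in a pair or were among the 2 with the smallest adjusted p in each direction in a list. The other called genes of nucleotide excision repair and the overlapping neighbours were named in addition, after their values were seen. The genes and lists were chosen with earlier results of these data known. Positions came from a GRCm38 annotation and promoters from RefSeq. Nothing in the labels says that samples with the same number belong together. The labels name separate samples, not animals, so the p-values measure the spread between these samples.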

Additional observations from a re-analysis of the deposited data

Results flagged for a closer look

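In 42 sets of 6 or 7 values (levels, ratios and totals within a group), 3 held a library far from the others by Dixon's test, where about 1 set in 20 is expected by chance, or 2.1 sets. The level of Apex1 in hyperoxia 6 was 3.936 CPM, from 18 counts, and the nearest hyperoxic library had 1.35 CPM. The log2 ratio of Ddb2 to Ddb1 in normoxia 5 was -7.607, with Ddb2 at 0 counts, and the nearest normoxic library had -5.30. The total count of normoxia 5 was 1607111 (1.607e+06), the lowest of all 13 libraries, and the next normoxic library had 2696280. Hyperoxia 1, which stood apart over all genes, held 0 of the 3 values.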

How the results depend on the processing

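Of 730 alternative values for 45 results, 603 were taken as the same, 18 lost and 3 gained the threshold, 75 moved and 31 reversed. A value was the same if it kept its direction and its side of the threshold. A count of genes was the same if it stayed within a fixed ratio of the main count, and otherwise had moved. Thus 5 or 9 genes higher in nucleotide excision repair, in place of 7, were taken as the same. The number of the 10 genes higher was 4 (0 lower) in every setting except 3 with at least 10 counts in every library, where Gadd45g was not tested, and 3 with the replicate block. Across the genes tested, the median log2 fold change was -0.16 with limma on log2(CPM + 1) and -0.10 with library size alone, beside -0.03, and Polk was between 1.36 and 1.48 over all settings that kept every library.

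Samples with the same replicate number did not deviate together (correlations of -0.33, 0.27, -0.24, -0.31, -0.07 and -0.14, 0 of 6 best with their own number). With the replicate block 718 genes were higher and 626 lower, Gadd45a was 1.00 with an adjusted p of 0.0959 from edgeR, Rrm2b was -0.066, the lists gave 4 higher and 0 lower in nucleotide excision repair, 1 higher and 0 lower in deoxynucleotide supply, 1 higher among GADD45 partners and 0 higher in S phase.

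Among list counts, DESeq2 gave 5 higher in damage tolerance, 2 higher in base excision repair, 4 lower in deoxynucleotide supply and 1 lower in S phase. Limma on log2(CPM + 1) gave 1 higher in damage tolerance, 1 higher among GADD45 partners, and 0 higher and 1 lower in S phase. Library size alone gave 1 higher in damage tolerance, 4 higher in nucleotide excision repair, 4 lower in deoxynucleotide supply, 1 higher among GADD45 partners, and 0 higher and 1 lower in S phase. With no filter 1 was higher in damage tolerance, 0 lower in deoxynucleotide supply, 2 lower among GADD45 partners and 1 lower in S phase. With at least 10 counts the numbers were 1 higher in damage tolerance, 1 lower in nucleotide excision repair, 1 lower in deoxynucleotide supply, 0 lower among GADD45 partners and 1 lower in S phase. The letter set as a term gave 1 lower in nucleotide excision repair and 4 lower in deoxynucleotide supply, and limma-voom 1 lower in S phase. Rrm2b reversed to -0.072 with limma-voom and -0.18 with limma on log2(CPM + 1). The causes were not tested.

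With 1 library left out, list counts ran from 1 to 3 higher in damage tolerance, 5 to 9 higher and 1 to 3 lower in nucleotide excision repair, 0 to 3 higher in base excision repair, 1 to 3 higher and 0 to 3 lower in deoxynucleotide supply, 1 to 5 higher and 1 to 2 lower among GADD45 partners, and 0 to 1 higher and 0 to 1 lower in S phase. The log2 fold change ran from -0.13 to 0.26 for Rrm2b and from -0.50 to 0.034 for Ogg1. The difference in mean log2 CPM ran from -1.21 to -0.57 for Ddb2, -0.31 to 0.10 for Rrm2b, -0.22 to 0.12 for Mutyh and -0.53 to 0.029 for Apex1. The log2 ratio differences ran from -0.023 to 0.47 for Rrm2b to Rrm2, -0.30 to 0.33 for Rrm2b to Rrm1, -1.38 to -1.04 for Xpc to Rad23b, 1.76 to 2.31 for Polk to Polh, -0.058 to 0.25 for Gadd45a to Gadd45b, -1.52 to -0.70 for Gadd45a to Gadd45g, -1.72 to -0.86 for Gadd45b to Gadd45g, -0.68 to 0.39 for Ogg1 to Mutyh and -0.15 to 1.17 for Ogg1 to Apex1. Ddb2, Mutyh, Apex1, Ogg1, Polh and Rrm2 had 0 to 25 counts per library, which limits their results. The cause of these low counts was not tested.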
